A study of Mus musculus with 16 samples.

Results

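The patellar tendon, which joins the kneecap to the shin, was compared with 3 other mouse tendons by RNA sequencing. The 16 libraries came from mice of the inbred strain C57BL/6J. Each tendon was represented by 4 libraries: Patellar, Achilles (calf to heel), Flexor (the flexor tendon of the forepaw) and Supraspinatus (rotator cuff of the shoulder). No agent or engineered allele was given for any group. The labels used here state neither age nor sex, nor whether tissue of several mice was pooled or which parts of the surrounding tissue were kept. The 4 Patellar libraries were set against the 12 others, and genes were selected whose 4 Patellar values did not overlap with the 12 other values. Values are read counts divided by library size (CPM) after TMM scaling, a correction for differences in library composition. Of 23754 genes with enough counts to be tested, 1671 (7.03%) had their lowest Patellar value above the highest of the other 12. For 2919 (12.3%) the highest Patellar value was below the lowest of the other 12. Of the higher genes, 130 reached the minimum count only through the Patellar libraries, as did 886 (3.73%) of all genes tested. The filter favoured high Patellar values in these genes without forcing the groups apart.

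Tendon is a collagen-rich tissue made by fibroblasts called tenocytes, whose identity is tied to the transcription factors Scleraxis (Scx) and Mohawk (Mkx). Adult tendon fibroblasts also keep part of the positional code of the limb, carried by Hox genes and other patterning factors that were set up in the embryo. Tendons lie against muscle, fat and a sliding sheath, so a dissected tendon can carry RNA of those tissues, and in bulk RNA fewer cells of a type cannot be told apart from less RNA per cell.

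Muscle genes were therefore kept apart. A gene was counted as muscle when it stood on a list of skeletal muscle or satellite cell markers. It was also counted as muscle when its level followed the mean of the muscle list across the 12 other libraries, as deviations from their tendon means, with Pearson r of at least 0.7 over 12 libraries. No Patellar value entered that choice. Of the 2919 lower genes 1208 (41.4%) were muscle genes, 167 by list and 1041 by correlation alone, and 1711 lay outside muscle. Of the 1671 higher genes 12 (0.718%) were muscle genes, all by correlation, and 1659 lay outside. Among all genes tested 2033 (8.56%) were muscle genes. Of the 201 tested genes on the muscle or satellite cell lists, 142 reached that correlation themselves. Muscle genes missing from the lists can therefore remain among the 1711, and outside muscle means outside this rule.

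Library totals were 34559686 to 63235636 counts in Patellar and 84414005 to 107805065 in the other tendons. The 7 genes that resemble ribosomal RNA took 13.2% to 42.0% of Patellar counts and 1.86% to 4.91% elsewhere. The skeletal muscle list took 0.268% to 1.73% of Patellar counts, 9.95% to 18.4% in Achilles, 12.7% to 17.9% in Flexor and 22.2% to 24.4% in Supraspinatus. The adipocyte list took 1.46% to 4.54% of Patellar counts, a range that overlapped with Achilles and lay above the other tendons. Patellar replicates correlated with each other at Pearson r 0.903 to 0.948 across genes, and replicate 3 stood apart on the third principal component, which held 11.2% of the variance. Nothing in the labels says that replicates of a tendon came from separate animals beyond their mouse numbers, and p-values measure the spread between these samples.

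**Figure D1:**
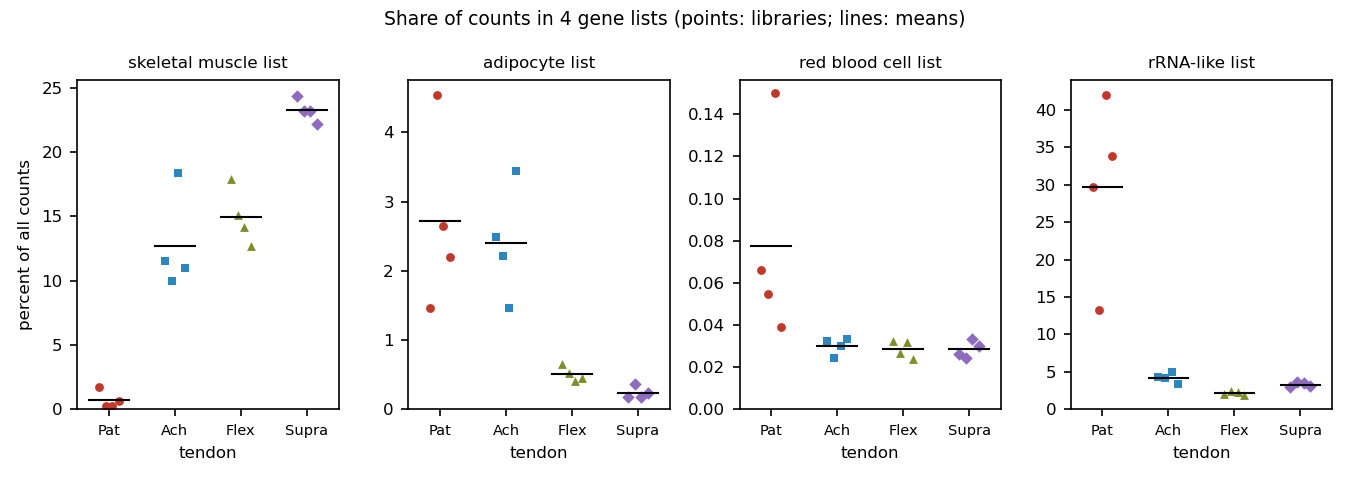
Percent of all counts in 4 gene lists (vertical axes, each from 0) for each library (points) and tendon mean (lines). The 4 Patellar libraries hold 0.268% to 1.73% of counts in the skeletal muscle list and 13.2% to 42.0% in the rRNA-like list, outside the ranges of the other 12 libraries in both, while in the adipocyte list they overlap with Achilles.

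Besides the counts above, edgeR's quasi-likelihood test compared the Patellar mean with the mean of the 3 other tendon means on the log2 scale. It called 6496 genes higher (27.3%) and 6263 lower (26.4%) at an adjusted p below 0.05, and the median log2 fold change over all genes tested was 0.03. Nearly all genes without overlap carried a call in the same direction, 1670 of 1671 higher and 2915 of 2919 lower. Their fold changes and p-values describe genes that were selected on these same levels. For lists of genes, the share called is read against 27.3% and 26.4%, and the share without overlap against 7.03% and 12.3%. Most genes without overlap were separated by a narrow margin. The ratio of the lowest value on the higher side to the highest on the lower side, with 0.5 CPM added to both, reached 2 in 77 higher and 81 lower genes outside muscle, and 4 in 6 and 18.

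Among the 20 leading higher genes, Hoxc8 had the widest gap between groups. Hoxc8, a homeodomain factor of the Hoxc cluster (ENSMUSG00000001657, chromosome 15, 102990607 to 102994111, forward strand in the mm10 assembly), stood at 29.5, 27.8, 39.3 and 36.8 CPM in Patellar replicates 1 to 4 and at 0.01 to 2.8 (median 0.136) in the other 12 libraries. Every Patellar library lay about an order of magnitude above the highest other library (log2 fold change 7.32 ± 0.19 (SE), adjusted p = 1.42e-12). The level outside Patellar was not uniform, with means of 2.47 in Achilles, 0.023 in Flexor and 0.148 in Supraspinatus. Hoxc9 measured 33, 16.2, 33.4 and 38.8 CPM in Patellar and 0.00892 to 6 (median 0.0859) elsewhere (log2 fold change 7.01 ± 0.33 (SE), adjusted p = 2.17e-09), and its highest values outside Patellar were again those of Achilles. Hoxc6 measured 16.3, 15, 19 and 14 CPM against 0.0352 to 5.5 (median 2.38) (log2 fold change 4.24 ± 0.14 (SE), adjusted p = 1.47e-11), and here Supraspinatus came closest, with a mean of 4.99. Hoxc10 measured 34.2, 23.8, 19.7 and 28.6 CPM in Patellar and a mean of 15 in Achilles, while Flexor and Supraspinatus were near 0, with means of 0.0415 and 0.104. Its Patellar and Achilles values did not overlap but lay close, the lowest Patellar library at 19.7 and the highest Achilles library at 18.9. Hoxc4 measured 6.96, 3.57, 6.28 and 8.18 CPM against 0.01 to 2.22 (median 1.47).

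Of the 9 tested genes of the Hoxc cluster 8 were called higher and none lower, and 5 did not overlap. The median log2 fold change of the list was 3.68. The exceptions to the pattern sat at the 5′ end. Hoxc11 was at 0.242 to 0.322 CPM in Patellar and at a mean of 3.14 in Achilles, so its call (log2 fold change 3.26 ± 0.46 (SE), adjusted p = 6.00e-05) came from Flexor and Supraspinatus, where it was at or near 0. Hotair, a long noncoding RNA between Hoxc11 and Hoxc13, likewise averaged 0.473 CPM in Patellar and 1.33 in Achilles. With the 12 others treated as a single group, Hoxc11 had a log2 fold change of -1.85 with an adjusted p of 0.456, and 4 genes of the Hoxc cluster kept a call. Hoxc13 was at 0.115 CPM or less in Patellar and was not called. The annotation of Hoxc5 starts within Hoxc10 and spans Hoxc9, Hoxc8 and Hoxc6 on the same strand, so its counts (10.1, 8.86, 13.4 and 10.7 CPM in Patellar, overlapping with Supraspinatus) cannot be separated from theirs.

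**Figure D2:**
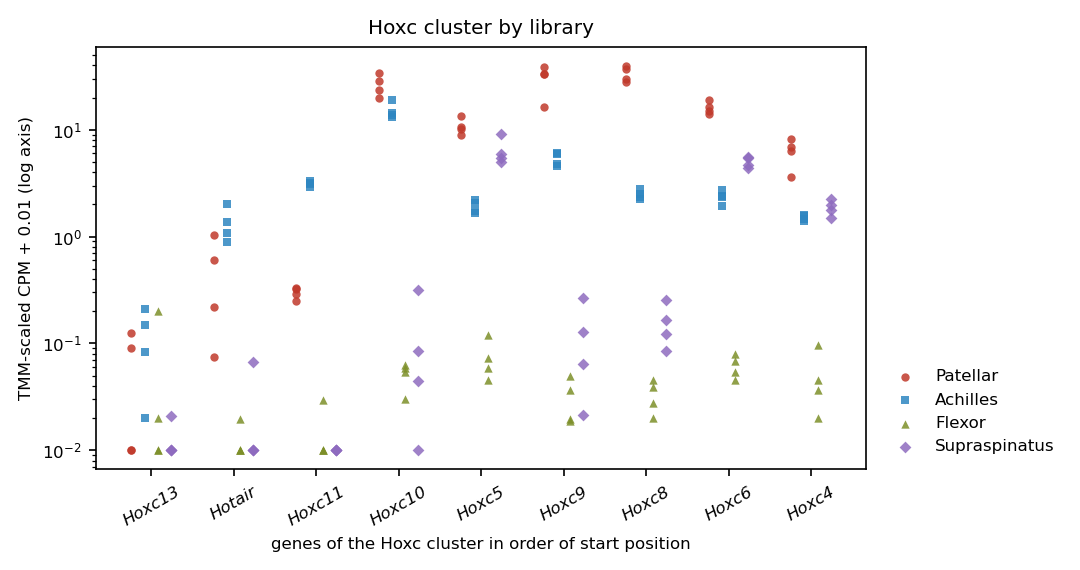
TMM-scaled CPM plus 0.01 (vertical log axis) for the genes of the Hoxc cluster in order of start position (horizontal axis), 1 point per library. In Hoxc10, Hoxc9, Hoxc8, Hoxc6 and Hoxc4 the 4 Patellar points lie above all others, with Achilles close in Hoxc10, while in Hoxc5 they overlap with Supraspinatus; in Hoxc11 the Achilles points, with a mean of 3.14, lie above the Patellar points at 0.242 to 0.322.

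The other Hox clusters held fewer genes without overlap than Hoxc. In Hoxa 6 of 14 tested genes were called higher and 4 lower, with a median of 0.39. Hoxa9 was the member without overlap, at 42.3, 41.9, 58.5 and 60.4 CPM in Patellar and 13.7 to 25.3 (median 18) in the others (log2 fold change 1.46 ± 0.13 (SE), adjusted p = 2.27e-07). The lower calls were Hoxa13, Hoxa11 and 2 noncoding neighbours, Hottip and Hoxa11os, genes of the 5′ end that pattern the distal limb. Hoxb went the same way as Hoxc, with 6 of 9 called higher, none lower and a median of 1.67. No Hoxb gene reached a mean of 5 CPM, and with the 12 others as a single group 1 kept a call. In Hoxd none was called higher and 3 lower (Hoxd13, Hoxd11 and Hoxd10). Hoxd13 was at 0 in Patellar replicates 1 and 2, at 0.0347 and 0.0269 CPM in replicates 3 and 4, and at a mean of 8.67 in Flexor.

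Among 58 tested limb patterning factors outside the Hox clusters, 26 were called higher and 17 lower, against 27.3% and 26.4% of all genes tested. Without overlap 11 lay above and 7 below, against 7.03% and 12.3%. Both counts of lower factors were thus near the shares of all genes tested. Mab21l2, a nuclear protein required for eye development (ENSMUSG00000057777, chromosome 3, 86545581 to 86548629, reverse strand), measured 37.3, 30.6, 36.5 and 49.2 CPM in Patellar and 0.236 to 4.37 (median 1.1) in the others (log2 fold change 4.98 ± 0.27 (SE), adjusted p = 6.38e-09). Flexor was the nearest tendon, with a mean of 3.73. Lhx9, a LIM homeodomain factor of early limb mesenchyme (ENSMUSG00000019230, chromosome 1, 138825186 to 138848577, reverse strand), measured 16, 12.9, 14.4 and 25.6 CPM against 0.0799 to 4.88 (median 0.309) (log2 fold change 5.07 ± 0.32 (SE), adjusted p = 2.40e-08). Its highest values elsewhere were in Supraspinatus, with a mean of 2.82. Mab21l2 lies inside Lrba on the opposite strand, and Lrba itself stood at 52.8, 31.7, 32.8 and 49.9 CPM in Patellar and 9.79 to 20.9 (median 10.6) elsewhere. No source used here gives the strand setting of the counting, so reads of such pairs cannot be told apart with certainty.

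Twist1, a helix-loop-helix factor of mesenchyme, measured 26.1, 16.4, 24 and 29 CPM in Patellar and 2.54 to 6.61 (median 4.61) in the others (log2 fold change 2.42 ± 0.16 (SE), adjusted p = 2.54e-08). Emx2, a homeodomain factor of the limb girdle, measured 9.09, 8.6, 22.1 and 17.7 CPM against 1.12 to 3.68 (median 1.77), with replicates 3 and 4 above replicates 1 and 2. Shox2, a factor of the proximal limb, measured 24.8, 27.2, 29.1 and 35 CPM against 0.511 to 12.2 (median 6.08) (log2 fold change 3.08 ± 0.13 (SE), adjusted p = 6.55e-10). Its order over the tendons was Patellar, Achilles, Supraspinatus and Flexor, with means of 29.1, 10.5, 5.92 and 0.657 CPM. Gsc, a homeodomain factor, measured 13.7, 10.3, 11.9 and 11.3 CPM against 0.229 to 5.43 (median 1.51), and Lmx1b, which specifies the dorsal side of the limb and is required for the kneecap, measured 6.96, 3.94, 2.33 and 3.55 CPM against 0.029 to 1.8 (median 0.206).

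The hindlimb factor Pitx1 was high in Patellar without being shared equally by the other hindlimb tendon. It measured 77.8, 45.2, 50.2 and 70.6 CPM in Patellar and averaged 19.3 in Achilles, 0.226 in Flexor and 12.3 in Supraspinatus (log2 fold change 4.01 ± 0.21 (SE), adjusted p = 5.48e-09). The Achilles mean was thus closer to the Supraspinatus mean than to the Patellar mean. Tbx4, another hindlimb factor, overlapped with the other tendons, at 19.8, 20.7, 9.2 and 26.5 CPM against 3.55 to 23.4 (median 13) (log2 fold change 0.82 ± 0.21 (SE), adjusted p = 0.00317). Tbx5, its forelimb counterpart, stood at 8.73, 6.52, 8.33 and 7.94 CPM in Patellar, between Achilles with a mean of 0.315 and the forelimb tendons with means of 50.8 in Flexor and 20.3 in Supraspinatus. The Patellar values did not overlap with those of Achilles, and the contrast with all 3 tendons was not called (log2 fold change 0.19 ± 0.18 (SE), adjusted p = 0.384).

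The factors that were lower included genes that follow muscle. Tbx15, a T-box factor, measured 63.2, 57.4, 46.7 and 65.5 CPM in Patellar and 128 to 409.5 (median 267) elsewhere, and its correlation with the muscle list over the 12 other libraries was 0.85. With the mean log2 CPM of the muscle list as a covariate, the Hoxc count of 8 higher calls was the same. The other limb factors then had 13 higher and 1 lower call. The 4 Patellar values of that mean, 1.34 to 4.42, lay outside the 6.47 to 7.89 of the other 12 libraries. The covariate thus nearly followed the contrast, here and wherever it is used below. A call lost with it can come from a wider error as well as from a smaller fold change.

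Promoter sequence was available in RefSeq (GRCm38.p6, the same assembly as mm10) for 10 of the 20 leading higher genes, as 250 bases before to 50 after the start annotated there. The promoters of Mab21l2 (chr3:86548234-86548533, reverse strand), Lhx9 (chr1:138842395-138842694, reverse), Hoxc4 (chr15:103034145-103034444, forward), Aqp2 (chr15:99578806-99579105, forward) and Aqp5 (chr15:99590778-99591077, forward) are shown because they belong to the patterning genes and to a neighbouring pair of water channels, all without overlap; Hoxc4 and Aqp5 lay below the level asked of the 20. They read 5′ to 3′ along the gene, and capitals mark matches on either strand to any of 3 motifs. The E-box, bound by helix-loop-helix factors such as Scleraxis and Twist1, was searched as CANNTG. The box that places the start of transcription in some promoters was searched as TATAAA and is called the TATA box here. A core motif that many homeodomain factors bind was searched as TAATTA.
Mab21l2: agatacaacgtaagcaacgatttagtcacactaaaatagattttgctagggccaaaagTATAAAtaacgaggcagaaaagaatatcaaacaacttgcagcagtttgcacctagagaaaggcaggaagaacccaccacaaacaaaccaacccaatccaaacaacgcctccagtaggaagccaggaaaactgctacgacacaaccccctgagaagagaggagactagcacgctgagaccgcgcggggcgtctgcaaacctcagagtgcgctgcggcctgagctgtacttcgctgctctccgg
Lhx9: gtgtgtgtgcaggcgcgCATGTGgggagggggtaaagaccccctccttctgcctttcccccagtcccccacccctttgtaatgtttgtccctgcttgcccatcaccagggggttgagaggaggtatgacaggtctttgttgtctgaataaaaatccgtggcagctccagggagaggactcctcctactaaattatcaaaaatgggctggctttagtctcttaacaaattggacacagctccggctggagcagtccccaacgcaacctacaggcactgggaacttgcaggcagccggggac
Hoxc4: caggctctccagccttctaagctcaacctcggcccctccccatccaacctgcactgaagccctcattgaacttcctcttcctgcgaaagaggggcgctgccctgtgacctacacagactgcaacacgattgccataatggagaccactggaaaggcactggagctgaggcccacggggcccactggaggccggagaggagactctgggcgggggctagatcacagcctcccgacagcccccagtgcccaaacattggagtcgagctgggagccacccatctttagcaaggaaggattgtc
Aqp2: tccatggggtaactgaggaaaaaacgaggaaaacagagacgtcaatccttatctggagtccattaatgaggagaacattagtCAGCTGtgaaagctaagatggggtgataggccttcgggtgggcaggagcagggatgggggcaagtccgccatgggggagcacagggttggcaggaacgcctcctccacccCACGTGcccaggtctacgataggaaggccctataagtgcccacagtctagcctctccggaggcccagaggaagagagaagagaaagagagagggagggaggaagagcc
Aqp5: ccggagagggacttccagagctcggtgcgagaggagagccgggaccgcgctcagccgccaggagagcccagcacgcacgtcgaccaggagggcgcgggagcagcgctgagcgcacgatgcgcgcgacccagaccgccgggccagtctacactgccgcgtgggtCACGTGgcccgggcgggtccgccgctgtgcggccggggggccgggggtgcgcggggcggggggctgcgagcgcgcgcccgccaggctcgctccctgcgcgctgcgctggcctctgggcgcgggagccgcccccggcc
Mab21l2 held 1 TATA box and no E-box, Aqp2 held 2 E-boxes, Lhx9 and Aqp5 held 1 each, and Hoxc4 held no match. Of the 32851 promoters in RefSeq's set, 72.3% held an E-box, 13.6% a TATA box and 5.29% TAATTA. Of the 13 promoters of the 10 genes with sequence, 46.2% held an E-box, 15.4% a TATA box and 7.69% TAATTA. The Aqp5 promoter was the richest in G and C of the 5 shown, at 79.7%, against 49.7% in Mab21l2.

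A stretch of chromosome 15 away from the Hoxc cluster held 3 adjacent protein-coding genes that were higher. Aqp2 (ENSMUSG00000023013, chromosome 15, 99579055 to 99584547, forward strand), a water channel known from the kidney collecting duct, measured 19.7, 28.2, 15.4 and 21.6 CPM in Patellar and 0.473 to 2.87 (median 1.33) in the others (log2 fold change 4.13 ± 0.22 (SE), adjusted p = 6.38e-09). Aqp5 (ENSMUSG00000044217, chromosome 15, 99590782 to 99594829, forward strand), a water channel of glands, measured 10.3, 7.21, 6.28 and 6.48 CPM against 0.12 to 1.96 (median 0.502) (log2 fold change 3.67 ± 0.29 (SE), adjusted p = 1.11e-07). Faim2 (ENSMUSG00000023011, chromosome 15, 99497012 to 99528165, reverse strand), an inhibitor of Fas-mediated cell death known from neurons, measured 48.4, 42, 23.4 and 52.4 CPM against 0.599 to 6.32 (median 3.5) (log2 fold change 3.81 ± 0.30 (SE), adjusted p = 1.02e-07). All 4 Patellar libraries were above all others in each of the 3 genes. The flanking genes that were tested overlapped between groups. Aqp6, a further aquaporin of this stretch, did not have enough counts to be tested. Bcdin3d, next to Faim2, averaged 8.28 CPM in Patellar and was not called, with an adjusted p of 0.717. Racgap1, the next tested gene after Aqp5, averaged 4.04 CPM and was called higher, with a log2 fold change of 0.59 and an adjusted p of 0.0383. Over the aquaporin list, in which Faim2 was included as a neighbour, 6 of 9 tested genes were called higher and 1 lower. The lower gene was Aqp4, the water channel of muscle and glia, at 2.89, 1.9, 6.84 and 0.565 CPM in Patellar and 9.2 to 51 (median 14.8) elsewhere (log2 fold change -2.60 ± 0.45 (SE), adjusted p = 1.52e-04), with a correlation with the muscle list of 0.41.

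Other stretches of 4 or more adjacent tested genes were higher together. The longest held Antxr1, a collagen-binding receptor at 146, 128, 111 and 149 CPM against 26.6 to 89 (median 46.7), and 5 transcripts without a gene name on chromosome 6, from 87133853 to 87335821. The imprinted domain of Meg3 and Rtl1 on chromosome 12 formed another. It included Gm27596, which overlaps Meg3 on the same strand, so their reads cannot be told apart with certainty. Whether other members of these stretches share reads was not tested. Meg3, a noncoding RNA kept in the nucleus, measured 340.3, 238, 233 and 307 CPM against 33.2 to 216 (median 45) (log2 fold change 2.14 ± 0.19 (SE), adjusted p = 2.85e-07), and of 9 tested long RNAs of the nucleus 7 were called higher and none lower. The only stretch of this kind among lower genes outside muscle was Ccdc71, Lamb2, Usp19, Qars and Qrich1 on chromosome 9. Muscle genes were not counted in stretches and ended any stretch in which they lay.

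The 20 leading genes are those with the widest gap among named genes with a mean of at least 10 CPM outside muscle and other cell lists, and their remaining members came from several functions. Adam12, a membrane metalloprotease of growing mesenchyme (ENSMUSG00000054555, chromosome 7, 133883199 to 134232146, reverse strand), measured 21.5, 14.4, 12.1 and 14.4 CPM in Patellar and 0.483 to 5.15 (median 1.47) in the others (log2 fold change 3.41 ± 0.24 (SE), adjusted p = 3.40e-08). Tmsb10, which binds actin monomers, measured 109, 60.2, 91.1 and 67.2 CPM against 8.27 to 21.8 (median 12.6) (log2 fold change 2.60 ± 0.13 (SE), adjusted p = 5.48e-09). Marcks, which links actin to the cell membrane, measured 106, 108, 164 and 142 CPM against 8.4 to 39.6 (median 14.8) (log2 fold change 2.88 ± 0.16 (SE), adjusted p = 9.67e-09). In all 3 genes Achilles or Supraspinatus held the highest value outside Patellar. Ifi27l2a, an interferon-induced gene, measured 979.7, 1853, 1698 and 1282 CPM against 25.5 to 410.2 (median 85) (log2 fold change 3.91 ± 0.36 (SE), adjusted p = 3.53e-07). Apoc1, an apolipoprotein, measured 28.8, 83.3, 57 and 43.2 CPM against 0.541 to 12.5 (median 2.33), and its Patellar values rose and fell with the adipocyte share, replicate 2 being highest and replicate 1 lowest in both; the part of fat in it was not tested. Arfgef3 was at 24.5, 9.88, 9.44 and 17.9 CPM and at 0.562 to 3.09 (median 1.76) elsewhere, and Oit3 at 19, 12.8, 13.5 and 18.3 against 0.746 to 4.45 (median 1.33).

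Hacd4, an enzyme of very long fatty acid synthesis, was at 29.1 to 39 CPM in Patellar and 6.79 to 12.8 (median 10.4) elsewhere. Zfp469, the mouse counterpart of a gene mutated in brittle cornea syndrome, was at 9.42 to 19.8 CPM against 0.864 to 4.07 (median 2.31). Egfros, which runs antisense to Egfr, was at 9.11 to 19.8 CPM against 0.933 to 3.55 (median 1.53), while Egfr itself overlapped, at 81 to 96.4 against 51 to 110.0 (median 71.2), and was not called. Without strand information the reads of both cannot be told apart with certainty. With the muscle mean as a covariate 15 of the 20 leading genes kept a higher call, and Emx2, Oit3, Ifi27l2a, Apoc1 and Hacd4 lost it, at adjusted p of 0.0809 to 0.463.

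**Figure D3:**
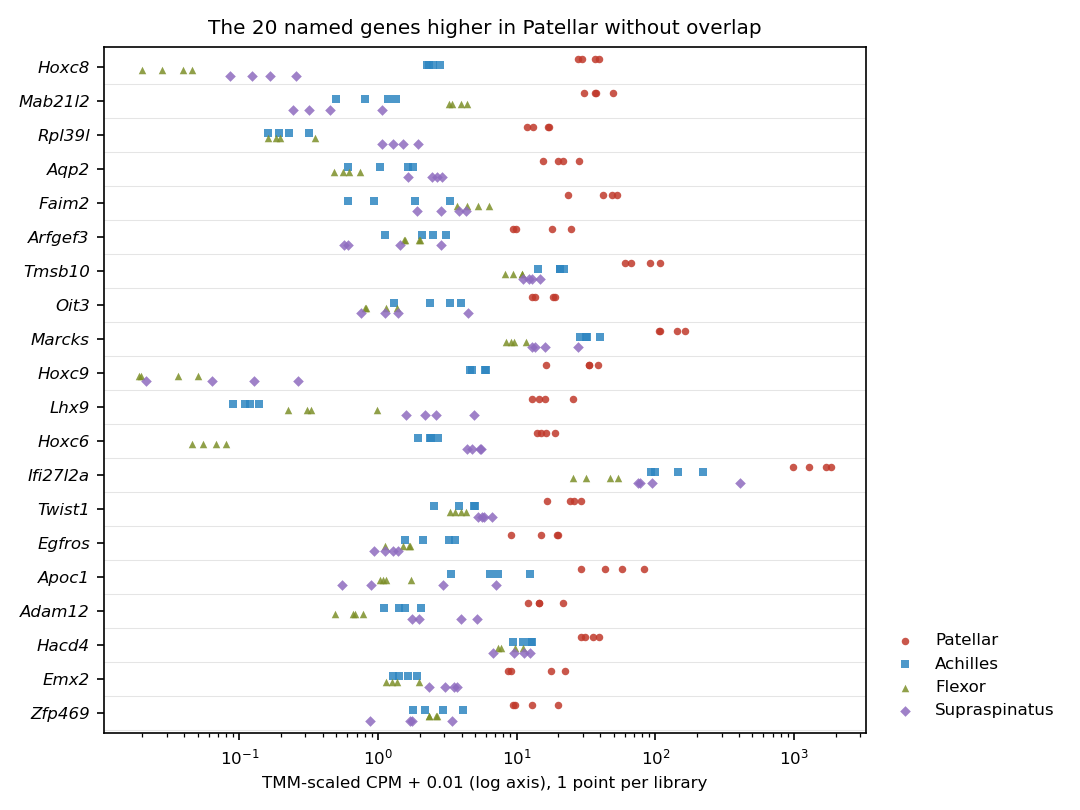
TMM-scaled CPM plus 0.01 (horizontal log axis) for the 20 leading genes higher in Patellar, in order of the gap between groups, 1 point per library and 1 colour and shape per tendon. In every row the 4 Patellar points lie to the right of the 12 others, most widely in Hoxc8, where the Patellar points lie at 27.8 to 39.3 CPM and the highest other point at 2.80.

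Rpl39l, a copy of the ribosomal protein gene Rpl39, was at 17, 11.9, 16.8 and 13 CPM against 0.15 to 1.92 (median 0.264) (log2 fold change 5.18 ± 0.21 (SE), adjusted p = 3.13e-10). Rpl39 itself overlapped, at 61.6, 39.7, 54.7 and 51.8 CPM against 18.7 to 52.7 (median 30.4) (log2 fold change 0.73 ± 0.15 (SE), adjusted p = 7.18e-04). Of 89 tested genes of the cytoplasmic ribosomal protein list 73 were called higher and 1 lower, 17 and 1 did not overlap, and the median log2 fold change was 0.61. Without Patellar replicate 2 the genes higher without overlap numbered 55. With the muscle mean as a covariate 21 genes were called higher, at a median log2 fold change of 1.12. The lower gene was Rpl3l, the muscle form of Rpl3. Many ribosomal protein genes have near-identical copies elsewhere in the genome, so their counts are uncertain. The same holds for Gapdh, a glycolytic enzyme that was at only 8.99 to 19.7 CPM in Patellar and 53.7 to 192 (median 127) elsewhere.

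Collagens I and XI were higher in Patellar. Col1a1, the main chain of tendon collagen (ENSMUSG00000001506, chromosome 11, 94936224 to 94953042, forward strand), measured 20380, 18840, 11800 and 13410 CPM in Patellar and 1851 to 10140 (median 4834) in the others (log2 fold change 1.66 ± 0.33 (SE), adjusted p = 4.69e-04), and Col1a2, its partner chain, measured 19800, 18900, 11330 and 13930 CPM against 2010 to 10050 (median 4740) (log2 fold change 1.58 ± 0.32 (SE), adjusted p = 5.34e-04). Patellar replicates 3 and 4 were the lower of the 4 in both and close to the highest library elsewhere. Sparc, a collagen-binding protein, measured 17220, 13650, 9120 and 13030 CPM against 3438 to 6873 (median 4968) (log2 fold change 1.41 ± 0.19 (SE), adjusted p = 1.25e-05). Col11a1 and Col11a2, chains of the minor fibril collagen XI that sets fibril diameter, measured 481, 243, 256 and 341 CPM against 26.5 to 169.9 (median 62.5) and 260.5, 214, 287 and 323 against 8.12 to 83.1 (median 38.1) (log2 fold change 2.84 ± 0.36 (SE), adjusted p = 7.20e-06). Col15a1 measured 237, 133, 107 and 131 CPM against 22 to 82.9 (median 41.9). Col3a1 overlapped, at 8970, 7612, 4325 and 5830 CPM against 1391 to 6562 (median 4217), and its call (log2 fold change 0.74 ± 0.28 (SE), adjusted p = 0.0345) was lost in 12 of 27 other settings.

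Of 35 tested fibrillar and associated collagens 17 were called higher and 7 lower, with a median of 0.73. Of 41 genes of collagen processing and crosslinking 21 were higher and 7 lower, with a median of 0.57. The higher ones included Rcn3, a chaperone of the secretory pathway, at 278, 183, 134 and 205 CPM against 58.2 to 126 (median 75.6), and the prolyl hydroxylases P3h1, P3h2, P3h3 and P4ha1, while P4ha2 and P4hb, subunits of prolyl 4-hydroxylase, were among the lower ones. By overlap 3 of the 41 processing genes lay above and 4 below all other libraries, against 7.03% and 12.3% of all genes tested. The number above was 7 without Patellar replicate 3 and 0 with scaling by library totals alone. With the muscle mean as a covariate 1 collagen and 5 processing genes were called higher. Col1a1 and Col1a2 then had log2 fold changes of 1.51 and 1.41, with adjusted p of 0.345 and 0.366. The collagens that were lower without overlap were Col19a1, Col22a1, Col24a1 and Col26a1. Col22a1, which lines the border of muscle and tendon, measured 14.5, 1.9, 0.729 and 3.79 CPM in Patellar and 39.1 to 203 (median 170.5) in the others (log2 fold change -4.44 ± 0.59 (SE), adjusted p = 1.34e-05), and Patellar replicate 1, which also held the largest muscle share, was the highest of the 4. With the muscle covariate Col22a1 had a log2 fold change of -0.53 and an adjusted p of 0.694. The part of muscle in its level was not tested.

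Tendon markers were present in every Patellar library. Scx measured 128, 86.2, 88.6 and 107 CPM and averaged 18.8 in Achilles, 4.9 in Flexor and 56.3 in Supraspinatus (log2 fold change 2.57 ± 0.21 (SE), adjusted p = 1.09e-07). It was not among the genes without overlap because 1 Supraspinatus library reached 93.5 CPM. Mkx measured 111, 66, 84.9 and 109 CPM against 19 to 58.5 (median 34.7) (log2 fold change 1.33 ± 0.20 (SE), adjusted p = 5.08e-05), and Tnmd, a membrane protein of tenocytes, measured 398, 357, 214 and 309 CPM against 76.8 to 259 (median 119.5) (log2 fold change 1.15 ± 0.24 (SE), adjusted p = 7.59e-04). Fmod and Kera, small proteoglycans of collagen fibrils, were called higher (0.97 and 2.12 on the log2 scale), while Dcn and Comp were not, at 0.32 with an adjusted p of 0.28 and -0.22 with 0.528. Cilp, a matrix protein of the intermediate layer of cartilage, was lower without overlap, at 729, 793, 443 and 436 CPM against 1197 to 2491 (median 1603) (log2 fold change -1.48 ± 0.24 (SE), adjusted p = 7.88e-05). Its relative Cilp2 was called higher but overlapped, at 1250, 1022, 858 and 1185 CPM against 86.5 to 886 (median 326) (log2 fold change 1.85 ± 0.24 (SE), adjusted p = 9.35e-06).

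Of 33 tested genes of the tenogenic list 14 were called higher and 7 lower, with a median of 0.52. In each direction 3 were without overlap, against 7.03% higher and 12.3% lower of all genes tested. Those lower without overlap included Cilp and Eya1, and Eya1, a transcriptional coactivator, followed the muscle list at 0.79. The number above all other libraries was 6 without Patellar replicate 3 and 2 with scaling by library totals alone. With the muscle mean as a covariate 1 tenogenic gene was called higher and 1 lower. Small leucine-rich proteoglycans had 7 of 18 called higher and 3 lower, and none was without overlap.

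Enzymes that cut or regulate matrix had 16 of 44 called higher and 8 lower. Mmp23, a membrane-anchored metalloprotease, was at 52.9, 49.9, 50.4 and 56.2 CPM in Patellar, a narrow range, against 5.53 to 24.4 (median 8.88) elsewhere (log2 fold change 2.21 ± 0.21 (SE), adjusted p = 5.05e-07). Adamtsl1 measured 23.8, 43, 22.5 and 48.9 CPM against 2.19 to 19 (median 11.1), while its relative Adamtsl5, at 28.3, 25.5, 19.9 and 28.6 against 61.2 to 106 (median 86.5), was lower (log2 fold change -1.75 ± 0.14 (SE), adjusted p = 1.18e-07). Timp3, an inhibitor of matrix proteases, was lower without overlap, at 174, 472, 418 and 307 CPM against 551 to 1154 (median 734). Coch, a secreted matrix protein of the inner ear, was at 8.87, 10.1, 10.6 and 5.76 CPM in Patellar and at 10.8 to 6415 (median 72.9) elsewhere, where Flexor alone averaged 4589 and Supraspinatus 27.8. Basement membrane genes had 3 of 24 called higher and 12 lower, among them Lamb2, at 231, 324, 262 and 273 CPM against 374 to 602 (median 496) (log2 fold change -0.87 ± 0.13 (SE), adjusted p = 3.66e-05).

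Secreted signals moved in both directions. Igf1, a growth factor of muscle and tendon (ENSMUSG00000020053, chromosome 10, 87858265 to 87937042, forward strand), measured 419, 403, 283 and 367 CPM in Patellar and 51.2 to 202 (median 72.1) in the others (log2 fold change 1.83 ± 0.29 (SE), adjusted p = 7.33e-05). Chrd and Chrdl1, which bind and block BMP ligands, measured 43.1, 51.7, 49.7 and 71 CPM against 13.9 to 36.7 (median 24.8) and 104, 199.9, 116 and 170.3 against 35.8 to 88.6 (median 51.6). Dkk2, a Wnt inhibitor, measured 75.6, 130.2, 102 and 132 CPM against 8.72 to 58.7 (median 29.1) (log2 fold change 1.88 ± 0.30 (SE), adjusted p = 6.53e-05). Bmp5 was lower without overlap, at 0.023, 2.2, 2.74 and 2.07 CPM against 4.4 to 23 (median 10.5) (log2 fold change -2.54 ± 0.52 (SE), adjusted p = 6.37e-04), with Flexor highest at a mean of 20.6. Fgf7 measured 5.67, 11.4, 2.88 and 10.6 CPM against 14.3 to 45.3 (median 32.1) (log2 fold change -1.90 ± 0.28 (SE), adjusted p = 3.39e-05). By list, 16 of 50 BMP, GDF and TGF-beta genes were called higher and 15 lower, 11 of 43 FGF, IGF and PDGF genes higher and 13 lower, and 7 of 37 Wnt genes higher and 11 lower, shares near those of all genes tested. With the muscle mean as a covariate Igf1, Chrd, Chrdl1, Dkk2 and Fgf7 lost their calls, at adjusted p of 0.327, 0.658, 0.882, 0.713 and 0.119. The Wnt count fell to 4 higher without Patellar replicate 3. Of 41 cytokines and chemokines 18 were higher and 1 lower, and with the muscle mean as a covariate 1 was higher and 2 lower.

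Mt3, a metal-binding protein best known from brain, was the metallothionein without overlap, at 92, 71.3, 75.6 and 212 CPM in Patellar against 1.9 to 16.3 (median 5.98) (log2 fold change 4.01 ± 0.36 (SE), adjusted p = 2.57e-07). It is counted among the 12 higher muscle genes, since its level followed the muscle list over the other 12 libraries at 0.74. Mt1 and Mt2 were called higher but overlapped, at 1021, 496, 644 and 1133 CPM against 182 to 989 (median 407) and 212, 95.8, 134 and 252 against 19.1 to 147 (median 60.4).

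**Figure D4:**
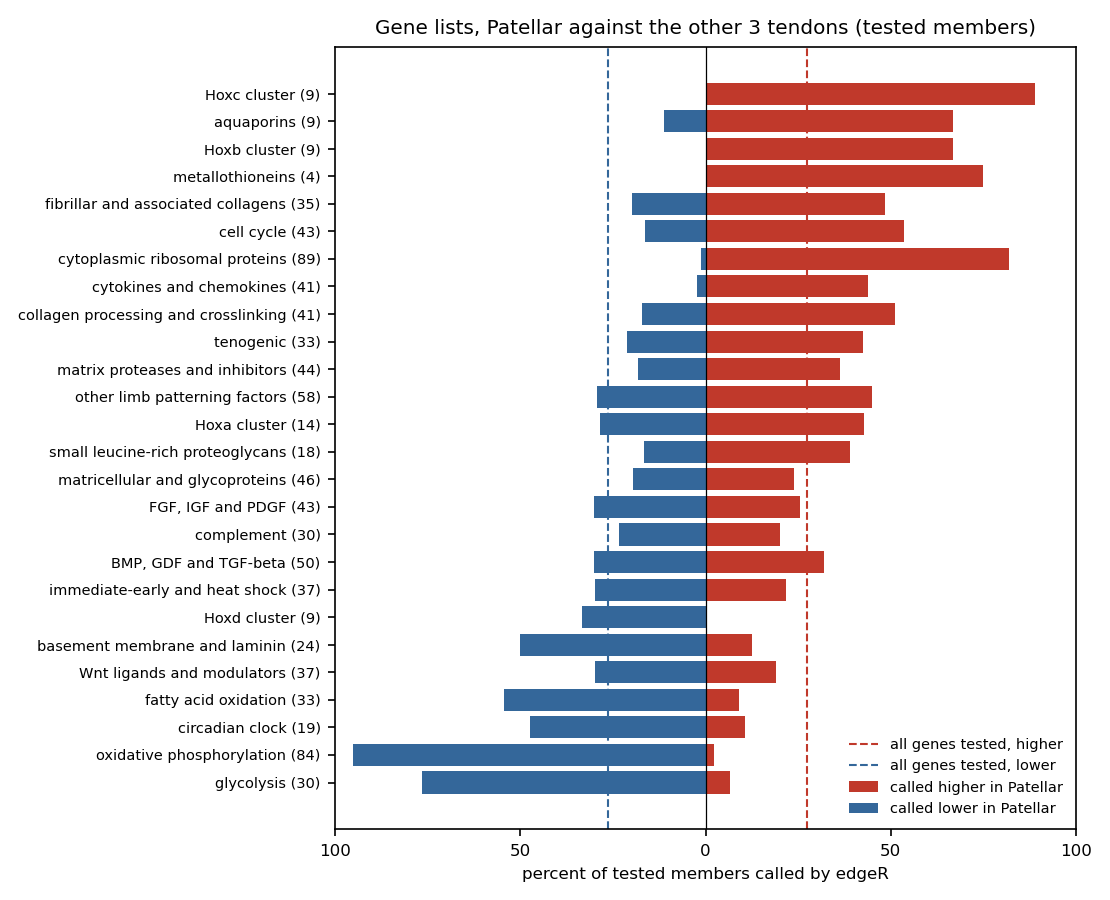
Percent of tested members called higher (bars to the right) or lower (bars to the left) by edgeR for each gene list of tissue biology, with the number tested in brackets; dashed lines mark 27.3% higher and 26.4% lower over all genes tested. The Hoxc cluster (8 of 9 higher) and the ribosomal protein list (73 of 89 higher) lie at one end, and oxidative phosphorylation (80 of 84 lower) and glycolysis (23 of 30 lower) at the other.

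Markers of skeletal muscle were lower in Patellar. Of 188 tested skeletal muscle markers 179 were called lower and none higher, 159 lay below all other libraries, and the median log2 fold change was -4.29. Acta1, skeletal muscle actin, measured 2987, 126, 322 and 859 CPM in Patellar and 15020 to 42870 (median 21380) elsewhere, and Ckm, muscle creatine kinase, measured 334, 17, 38.2 and 146 against 1368 to 8347 (median 3006). Ttn measured 1623, 63.4, 131 and 569 CPM against 7858 to 19370 (median 11870). Patellar replicate 1 was the highest and replicate 2 the lowest of the 4 in all 3 genes. Myh4, the myosin of fast fibres, overlapped with Achilles, at 233, 29.7, 73.8 and 106 CPM against a mean of 352 in Achilles, 8995 in Flexor and 27940 in Supraspinatus. Satellite cell markers had 12 of 16 called lower and none higher.

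Genes of energy metabolism were lower as well. Of 84 tested genes of oxidative phosphorylation 80 were called lower and 2 higher, and 63 were without overlap, with a median of -1.22. Atp5b, a subunit of ATP synthase, measured 897, 766, 711 and 671 CPM against 2429 to 4432 (median 3019), with a correlation with the muscle list of 0.93. Glycolysis had 23 of 30 lower and fatty acid oxidation 18 of 33. Aldoa measured 1159, 513, 559.6 and 629 CPM against 2670 to 17610 (median 8487) and Hadhb 45.7, 46.9, 44.4 and 40.8 against 81.4 to 278 (median 132), with correlations of 0.90 and 0.92. With the muscle mean as a covariate 1 gene of oxidative phosphorylation was called lower and 3 higher, 9 of glycolysis were called lower, and 2 of fatty acid oxidation.

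The leading lower genes outside muscle lay close to that boundary. For 15 of the 20 the correlation with the muscle list was between 0.5 and the limit of 0.7, and for Slc8a3 and Masp1 it was below 0.3. Slc47a1, a transporter of organic cations (ENSMUSG00000010122, chromosome 11, 61343401 to 61378345, reverse strand), measured 0.276, 0.586, 0.0694 and 0.35 CPM in Patellar and 14 to 46.6 (median 30.8) in the others (log2 fold change -6.30 ± 0.36 (SE), adjusted p = 9.67e-09), with a correlation of 0.63. Car14, a membrane carbonic anhydrase, measured 1.29, 0.325, 0.694 and 0.592 CPM against 16.8 to 88.4 (median 46.8) (log2 fold change -5.96 ± 0.45 (SE), adjusted p = 6.81e-08), with a correlation of 0.65. Several others are known from the muscle fibre or its synapse. Srpk3, a kinase of muscle, was at 1.34 to 4.28 CPM against 44.5 to 79.1 (median 53.7), and Dok7, which activates the receptor of the neuromuscular synapse, at 2.07 to 3.09 against 17.8 to 46.8 (median 29.6). Sypl2, a protein of the muscle triad, was at 1.2 to 11 CPM against 41.5 to 503 (median 71.5), and Prob1 at 0.59 to 2.71 against 9.31 to 70.7 (median 44.6).

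Others of the 20 have roles outside muscle. Itgb6, an epithelial integrin chain that activates TGF-beta, measured 3.42, 0.234, 0.416 and 0.108 CPM in Patellar and 23.1 to 86.7 (median 34.5) elsewhere (log2 fold change -5.26 ± 0.67 (SE), adjusted p = 8.98e-06), with a correlation of 0.53. Egf, the epidermal growth factor, measured 1.81, 3.75, 0.243 and 1.61 CPM against 10.4 to 20.6 (median 16.7) (log2 fold change -3.05 ± 0.41 (SE), adjusted p = 1.27e-05). Egln3, a prolyl hydroxylase that senses oxygen, measured 10.1, 3.57, 3.3 and 2.91 CPM against 48.5 to 158 (median 84.1) (log2 fold change -4.21 ± 0.36 (SE), adjusted p = 1.99e-07), with a correlation of 0.30. In Itgb6 and Egln3 replicate 1 was the highest Patellar library, as it was for the muscle list. With the muscle mean as a covariate Itgb6 had a log2 fold change of -0.72 with an adjusted p of 0.667. Egln3 had -2.18 with 0.0537. The part of muscle in these 2 genes was not tested. Slc8a3, a sodium and calcium exchanger, measured 0.781, 2.24, 0.104 and 1.88 CPM against 12 to 39.8 (median 20.02) (log2 fold change -4.02 ± 0.46 (SE), adjusted p = 2.66e-06), with a correlation of 0.17. Masp1, a protease of the lectin pathway of complement, measured 1.61, 3.84, 3.54 and 2.34 CPM against 11.4 to 52.3 (median 14.5) (log2 fold change -2.81 ± 0.20 (SE), adjusted p = 4.46e-08), and Flexor was the highest tendon with a mean of 45.9. The remaining genes were Arpp21, Togaram2, Sel1l3, Slc44a2, Tmc7, Wnk2, Sec14l5 and Padi2. In all 8 the highest Patellar value was below the lowest of the other 12, and Slc44a2, a choline transporter, was at 47 to 75.8 CPM against 289.5 to 610.5 (median 437). With the muscle mean as a covariate 10 of the 20 lost their call, namely Car14, Itgb6, Togaram2, Egln3, Sypl2, Wnk2, Sec14l5, Prob1, Padi2 and Egf, at adjusted p of 0.0507 to 0.989.

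**Figure D5:**
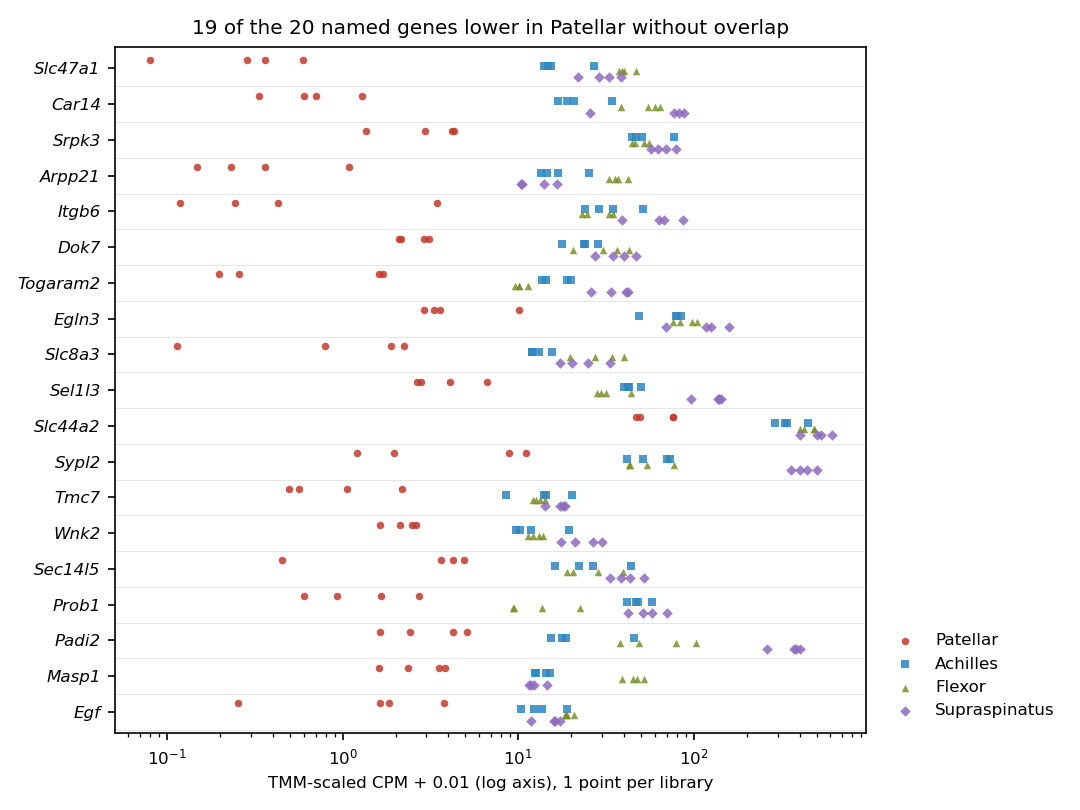
TMM-scaled CPM plus 0.01 (horizontal log axis) for 19 of the 20 leading genes lower in Patellar outside muscle, in order of the gap between groups, 1 point per library and 1 colour and shape per tendon. In every row the 4 Patellar points lie to the left of the 12 others, most widely in Slc47a1, where the Patellar points lie at 0.0694 to 0.586 CPM and the lowest other point at 14.0.

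A stricter limit for muscle, a correlation of 0.3 chosen after the values were seen, left 777 lower genes. Among them were Vamp1, a vesicle protein, at 8.4, 7.32, 5.24 and 9.74 CPM against 23 to 38.2 (median 30.5) with a correlation of 0.14 and Ppargc1b, a coactivator of mitochondrial genes, at 5.17, 4.4, 8.26 and 6.08 against 17.8 to 33.2 (median 24.9) with 0.24. Both were named after their values were seen.

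Markers of some other tissues also differed. Of 30 tested adipocyte markers 25 were called higher and 1 lower, with a median of 2.47. Those above all other libraries numbered 5, or 11 without Patellar replicate 1 and 3 with scaling by library totals alone. Adrb3, the adrenergic receptor of fat, measured 26.8, 130.3, 67.5 and 35.8 CPM against 0.0529 to 4.38 (median 0.726) (log2 fold change 6.31 ± 0.49 (SE), adjusted p = 8.64e-08), whereas Adipoq and Plin1 overlapped with Achilles, at 387, 1172, 925 and 635 CPM against 9.84 to 535 (median 55.4) and 120.5, 283, 245 and 162 against 2.1 to 136 (median 6.92). With the 12 others as a single group 14 adipocyte markers were called higher, and with the muscle mean as a covariate 1. Of 16 red blood cell markers 8 were called higher and 2 lower. Hbb-bs, a beta-globin gene with near-identical copies, measured 368, 225, 898 and 209 CPM against 15.3 to 97.1 (median 50.2), replicate 3 being the highest. Tfrc, the transferrin receptor, ran the other way, at 10.3, 11.4, 4.44 and 6.59 CPM against 53.8 to 280.3 (median 180.1) (log2 fold change -4.22 ± 0.27 (SE), adjusted p = 2.36e-08).

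Epidermal markers had 11 of 22 called higher and 2 lower. Yet the list took 0.00651% to 0.0115% of Patellar counts, which overlapped with Achilles and lay below the 0.0239% to 0.0295% of Flexor. Krt17, a keratin of skin appendages, measured 28.7, 8.84, 39.8 and 28.1 CPM against 0 to 5.03 (median 0.051) (log2 fold change 7.13 ± 0.71 (SE), adjusted p = 7.63e-07), the basal keratin Krt14 was called higher at only 0.0459, 0, 0.312 and 1.18 CPM in Patellar and overlapped, and Flg and Krt8 were at 0 in all 4. After thinning all libraries to 1 depth 5 of 15 epidermal markers tested were called higher. The macrophage list had 8 of 29 called higher and 2 lower, a share of higher calls near the 27.3% of all genes tested. The list took 0.0753% to 0.221% of Patellar counts, which overlapped with every other tendon. Cd209f, a lectin of resident macrophages with close relatives in the genome, measured 7, 31.2, 31.8 and 16.5 CPM against 0.216 to 4.3 (median 1.31) (log2 fold change 3.88 ± 0.42 (SE), adjusted p = 1.63e-06), Vsig4 measured 3.88, 0.0391, 2.81 and 3.74 against 6.63 to 31.2 (median 13.3), and the general marker Cd68 was not called (log2 fold change 0.16 ± 0.29 (SE), adjusted p = 0.655).

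Bone markers had 10 of 25 called higher and 8 lower, and their median turned from 0.68 to -0.54 with the 12 others as a single group. Ibsp, bone sialoprotein, was at 37.9, 27.3, 23.5 and 13.3 CPM in Patellar and at a mean of 514 in Achilles, 4.11 in Flexor and 0.472 in Supraspinatus. Cartilage markers had 7 of 36 called higher and 11 lower, against 27.3% and 26.4% of all genes tested. Acan, Col2a1 and Sox9 were not called (0.70, 1.02 and -0.31 on the log2 scale, adjusted p of 0.368, 0.0975 and 0.386). Markers of Schwann cells and nerve had 15 of 33 called lower and 2 higher, and those of pericytes and smooth muscle 11 of 21 lower and 2 higher. Erbb3, a receptor of Schwann cells, measured 1.47, 5.57, 1.25 and 0.834 CPM against 7.85 to 39.3 (median 22.3), and Abcc9, a potassium channel subunit of pericytes, measured 13.6, 15.7, 18.6 and 11.2 against 66.9 to 259.9 (median 133). The endothelial list had 4 of 26 higher and 3 lower, both below the shares of all genes tested, and without Patellar replicate 2 13 were lower.

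Genes of cell division had 23 of 43 called higher and 7 lower. Mki67, a marker of dividing cells, measured 10.4, 6.21, 2.15 and 6.94 CPM against 0.729 to 1.76 (median 1.07) (log2 fold change 2.55 ± 0.29 (SE), adjusted p = 3.14e-06), while Pcna and Mcm4, of DNA replication, were lower without overlap, at 15.1, 14.6, 14.3 and 15.6 CPM against 15.9 to 27.4 (median 19.5) and 10.6, 14.1, 12.2 and 13.2 against 15.3 to 33.7 (median 20.9). Ccnd2, a cyclin of the G1 phase, measured 272, 277, 249 and 289.7 CPM against 36.6 to 177 (median 65.5) (log2 fold change 1.68 ± 0.24 (SE), adjusted p = 2.32e-05). With limma voom 15 of the list were called higher, and with the muscle mean as a covariate 3. Clock genes had 9 of 19 called lower and 2 higher. Cry1, a repressor of the clock, measured 4.82, 7.55, 1.74 and 5.43 CPM against 8.48 to 31.8 (median 11.9) (log2 fold change -1.59 ± 0.27 (SE), adjusted p = 1.10e-04), and Per2 overlapped, at 17.3, 14.2, 8.64 and 25.9 against 25.1 to 86.8 (median 60.7). The time of tissue collection is not given in the labels used here.

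The genes without overlap were also compared with all genes tested in annotation class, length and GC content, which were not used to select them. Transcripts of the class TEC in the GENCODE annotation await experimental evidence. Outside muscle they numbered 202 among the 1659 higher and 22 among the 1711 lower genes. Among all genes tested they made up 6.61%. Protein-coding genes were of similar length in all sets, with median exonic lengths of 4247 bases for the higher, 4572 for the lower outside muscle and 4269 for all tested, and median GC contents of 50.8%, 49.3% and 49.9%. Patellar replicate 2 was the lowest of the 4, and so the nearest to the other tendons, in 861 (51.9%) of the higher genes outside muscle. By mean, Achilles was the nearest other tendon in 963 (58.0%) of these genes and in 1080 (63.1%) of the lower ones outside muscle. Both orders were taken from the values that the rule used, and neither was compared with all genes tested. At the edge of the rule lay Sh3gl1, just inside the higher set with 78.5 to 90.4 CPM against 56 to 78.5 (median 71.9), and Zfp513, just outside with 11.7 to 16.4 against 7.29 to 11.7 (median 10.4). Med17 was just inside the lower set with 10.2 to 17.6 CPM against 17.6 to 25.5 (median 21.5), and Flywch1 just outside with 36.6 to 45.9 against 45.9 to 59.6 (median 53.8).

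The counts changed with a muscle covariate and with the scaling. With the mean log2 CPM of the muscle list as a covariate edgeR called 1378 genes higher and 1534 lower, in a fit where the 4 Patellar values of that mean, 1.34 to 4.42, lay outside the 6.47 to 7.89 of the other 12 libraries. Under all 4 other ways of scaling or thinning, 903 of the 1659 higher and 808 of the 1711 lower genes outside muscle stayed without overlap. Of those separated at least 2-fold 72 of 77 and 81 of 81 did. Genes absent from a setting counted as not kept. These were the rRNA-like genes where they were left out, and genes below the minimum count after thinning, when 18588 were tested. How many were lost in this way was not counted.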

How the data were processed

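Total RNA of 16 tendon samples was purified with a column kit with DNase treatment and sequenced on Illumina libraries, per the labels' protocols. The deposited values are whole-number read counts per gene, 1 column per library; HISAT2, FastQC, edgeR and the mm10 assembly are named in the submitters' processing notes. No source used here gives the counter, its strand setting or a version of these tools. All 41204 genes of the table were read, positions were taken from GENCODE M21 for 41188 of them, and 23754 passed filterByExpr by tendon.

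Counts were scaled with TMM and fitted in edgeR 4.0.16 (robust quasi-likelihood, 1 mean per tendon, R 4.3.3). The contrast was Patellar minus the mean of the other 3 tendon means, 2-sided, with Benjamini-Hochberg adjusted p-values over all genes tested and a threshold of 0.05. Fold changes are log2 with the standard error from the F statistic. On simulated counts for 23754 genes in this contrast, 67 of 100 genes changed 2-fold and 93 of 100 changed 4-fold were called, with 12 false among 172 calls. Library totals of 34559686 to 107805065 counts set the precision.

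The genes named are the 20 with the widest gap in each direction, up to 6 genes without overlap from each of 46 lists, a panel of markers and the genes at the edge of the rule. Antxr1, Egfr, Gsc, Hoxc11, Hoxc5, Lmx1b, Lrba, Mt1, Mt2, Per2, Ppargc1b, Tbx15 and Vamp1 were named after their values were seen. The members and lists were chosen with earlier results of these data known. Alternatives were other scalings, filters, tests (DESeq2 1.42.0, limma 3.58.1), thinning, covariates and leaving out libraries. Promoter motifs were searched on both strands and their matches can overlap. Results of a few genes on these lists are not reported here.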

Additional observations from a re-analysis of the deposited data

Results flagged for a closer look

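In 137 genes the 4 Patellar libraries were screened for a value far from the other 3, by a gap to the nearest library above Dixon's 95% critical value for 4 samples,, and 5 genes (3.65%) met it. Chance flags about 1 in 20 such groups.

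Mt3 reached 212 CPM in Patellar replicate 4 and 71.3 to 92.0 in the other 3. Prg4, the lubricin of gliding surfaces, reached 2060 CPM in replicate 1 and 1280 to 1340 in the others. Itgb6 reached 3.42 CPM in replicate 1 against 0.108 to 0.416, and Egln3 reached 10.1 CPM in replicate 1 against 2.91 to 3.57. Replicate 1 also held the largest share of the skeletal muscle list, 1.73%. With the muscle mean as a covariate Itgb6 had a log2 fold change of -0.72 and Egln3 -2.18. The part of muscle in these values was not tested. Erbb3 reached 5.57 CPM in replicate 2 against 0.834 to 1.47.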

How the results depend on the processing

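Over 137 genes and 27 other settings, 3579 of 3679 log2 fold changes kept direction and side of the threshold, 84 lost the call (64 of them with the muscle mean as a covariate), 10 gained it and 6 changed sign. With the muscle covariate Acta1 had a log2 fold change of 0.81, Ckm 0.82, Ttn 1.46 and Cd209f -0.0803; with the 12 others as a single group Hoxc11 had -1.85 and Ibsp -2.76. None of these 6 values was called.

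The muscle covariate left 1378 genes higher and 1534 lower. A log2 fold change of at least 1 left 3894 and 3337. With a mean of at least 5 CPM (11257 genes tested) the calls were 3728 and 3400, and 1665 genes were lower without overlap, 688 of them outside muscle. Outside muscle the lower genes numbered 1079 after thinning, 2752 with the muscle lists alone, 1133 at a correlation of 0.5 and 777 at 0.3, the last added after seeing the data, as were the alternatives for gene lists. Leaving out 1 library gave 5906 to 6690 genes higher, 5976 to 6650 lower, 1586 to 2501 higher without overlap, 2937 to 3721 lower without overlap and 1739 to 2369 of these outside muscle. Limma voom moved the median of all genes by -0.13 and the muscle covariate by -0.10.

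Same-numbered libraries of different tendons correlated at -0.135 to 0.255 in their deviations from the tendon means, and the labels do not say whether a number marks the same mouse, so the samples were not treated as paired. With the replicate block 5874 genes were higher and 6208 lower. Patellar libraries were the shallowest of the 16, which limits genes of low level there.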
